A study of Mus musculus with 7 samples.

Results

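The macrophage core genes are a set of 31 mouse genes that mark monocytes and macrophages or carry out their work: colony-stimulating factor, Fc and scavenging receptors, adaptor chains, the C1q chains, lysozymes, subunits of the phagocyte oxidase, and lysosomal proteins. Members were matched by gene symbol in the platform annotation, with no threshold on measured values, but the list was drawn up with earlier results of these data known. Of the 31, 29 had a named row among the 23185 named genes of the value table, and Lyz2 and Spp1 were not analysed here. The genes were measured in bleomycin-treated skin of male C57BL/6 mice, 9 weeks old and treated for 3 weeks, with 1 Affymetrix array per sample. The groups were ox40l-/- (knockout, 4 arrays) and ox40l+/+ (wild type, 3 arrays). All mice received bleomycin, so untreated skin was not compared. OX40L, the product of Tnfsf4, is a ligand that costimulates T cells, and the series title names protection against fibrosis driven by inflammation. The mutation is not described further in the labels, and whether each array is a separate animal is not stated there.

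Monocytes enter injured skin from blood and become macrophages under colony-stimulating factor signals. They take up antibody-coated and complement-coated particles through Fc receptors and integrins, generate oxidants in the phagosome with the NADPH oxidase, and digest the cargo in lysosomes. In skin fibrosis they are known both for clearing debris and for releasing factors that act on fibroblasts. Many of the genes are also expressed by other leukocytes, including neutrophils and dendritic cells. In whole skin, fewer cells of a type and less RNA per cell cannot be told apart.

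The values are log2 expression, and a difference is knockout minus wild type. Wild type replicates 1 and 3 stood apart from the other 5 arrays. Pairs of arrays that included one of them correlated over probe sets at r of 0.761 to 0.914, against 0.956 to 0.969 for the others, and their values over probe sets had SDs of 1.72 (replicate 1) and 1.22 (replicate 3), compared with 1.38 to 1.48 elsewhere. Tnfsf4 itself differed by 0.02 (SE 0.31; limma adjusted p = 0.9995), with values of 2.53 to 3.65 over the 7 arrays and a mean below the median of all values, 3.60; the place of its probe set relative to the deletion is not known here, so it checks nothing about the labels. The keratinocyte marker list averaged 6.49 to 8.45 per array and Krt10, a keratin of differentiating epidermis, 8.14 to 10.5, so the markers of the labelled tissue were present. Mean levels of 27 of the 29 macrophage genes lay above the median of all values, and those of Fcgr4 and Nos2 lay below it.

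The transcription factor PU.1, the product of the member Spi1, is required for macrophage development and binds purine-rich sites with the letters GAGGAA. The promoters of 5 genes from the groups described below are shown to let a reader see windows with and without these letters: Itgam, which had the smallest p of the members, Fcgr1, Ctss and Fcer1g, which were highest on wild type replicate 2, and Laptm5, which had the widest spread. These 5 are examples picked with their matches known, and Fcer1g is shown as a window without one. Each line gives the 250 bases before the transcription start in RefSeq (GRCm38.p6), 5′ to 3′ on the gene's strand, with GAGGAA or its reverse complement TTCCTC in capitals. The stretches are chr7:128062390-128062639 on the plus strand for Itgam, chr3:96293970-96294219 on the minus strand for Fcgr1, chr3:95526536-95526785 on the plus strand for Ctss, chr4:130913066-130913315 on the plus strand for Laptm5, and chr1:171234350-171234599 on the minus strand for Fcer1g.
Itgam: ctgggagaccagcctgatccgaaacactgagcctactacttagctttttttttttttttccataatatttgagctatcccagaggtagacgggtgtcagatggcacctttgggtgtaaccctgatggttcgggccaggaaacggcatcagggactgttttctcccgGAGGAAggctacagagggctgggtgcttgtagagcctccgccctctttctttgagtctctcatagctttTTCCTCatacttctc
Fcgr1: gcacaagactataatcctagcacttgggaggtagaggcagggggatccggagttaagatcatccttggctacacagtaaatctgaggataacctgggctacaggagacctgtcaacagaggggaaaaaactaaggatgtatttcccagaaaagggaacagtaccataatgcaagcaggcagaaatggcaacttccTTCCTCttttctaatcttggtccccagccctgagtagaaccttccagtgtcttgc
Ctss: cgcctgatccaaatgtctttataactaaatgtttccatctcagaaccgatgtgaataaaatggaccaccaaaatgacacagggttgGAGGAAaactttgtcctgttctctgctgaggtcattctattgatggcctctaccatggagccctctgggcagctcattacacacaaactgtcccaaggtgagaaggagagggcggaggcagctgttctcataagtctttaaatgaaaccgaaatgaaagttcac
Laptm5: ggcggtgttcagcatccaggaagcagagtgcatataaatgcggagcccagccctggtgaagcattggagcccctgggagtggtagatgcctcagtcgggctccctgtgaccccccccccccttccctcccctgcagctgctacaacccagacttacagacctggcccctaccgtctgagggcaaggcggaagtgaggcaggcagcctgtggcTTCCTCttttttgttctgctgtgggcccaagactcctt
Fcer1g: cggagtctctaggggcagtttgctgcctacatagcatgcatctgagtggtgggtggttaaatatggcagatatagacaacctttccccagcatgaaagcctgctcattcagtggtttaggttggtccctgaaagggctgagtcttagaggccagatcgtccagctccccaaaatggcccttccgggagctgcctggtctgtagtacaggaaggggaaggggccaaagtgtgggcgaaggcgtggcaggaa

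Itgam held 2 matches, whose first bases lie 84 and 15 bases before the start. Fcgr1 held 1 match 55 bases before it, Ctss 1 match 164 bases before it and Laptm5 1 match 38 bases before it, while Fcer1g held 0. Promoter windows were at hand for 20 of the 29 genes. On either strand, 12 of these 20 held GAGGAA (60.0%), as did 25.9% of the 27025 genes with a window. Of the 9 members with a window that were highest on wild type replicate 2, 6 held it, and Fcer1g, Fcgr2b and Mpeg1 did not. The letters TTNNGNAA, read here as a C/EBP motif, were found in 8 of the 20 (40.0%) and in 40.3% of all genes. A match of one motif could share bases with a match of the other and was counted for both. A match is a run of letters, not a site shown to be bound.

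None of the 29 macrophage genes differed between genotypes at an adjusted p under 0.05 in limma, where 0.00431% of all 23185 genes passed, and the adjusted p of each was 0.9995. At an unadjusted p under 0.05 there was 1 member, Itgam, against 1.88% of all genes. The genotypes overlapped in all 29, and 1.91% of all genes had no overlap. Values were higher in knockout in 16 members and lower in 13, with differences from -0.55 (Itgam) to 0.61 (Lyz1). The median difference was 0.10, against 0.01 over all genes. Wild type replicate 2 is the only wild type array whose sample code has the suffix h, and wild type replicates 1 and 3 lack it. Knockout replicates 2 and 3 have the suffix, and knockout replicates 1 and 4 lack it. The number in the code is shared by knockout replicates 1 and 2 and by wild type replicates 1 and 2. Knockout replicate 3 and wild type replicate 3 also share a number. Within the arrays that lack the suffix the median difference was 0.24. Within those that have it, with 1 wild type array, the median difference was -0.24. Without wild type replicate 3 it was -0.28, and the unadjusted count was 3 members (Csf1r, Itgam and Mertk, all lower), where 12.0% of all genes passed. When arrays were weighted by their fit, 11 members passed at an adjusted p under 0.05, 9 lower and 2 higher, where 17.4% of all genes passed; that fit gave wild type replicate 2 a weight of 75.4 and wild type replicates 1 and 3 weights of 0.11, so its wild type level is nearly that of 1 array.

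**Figure D1:**
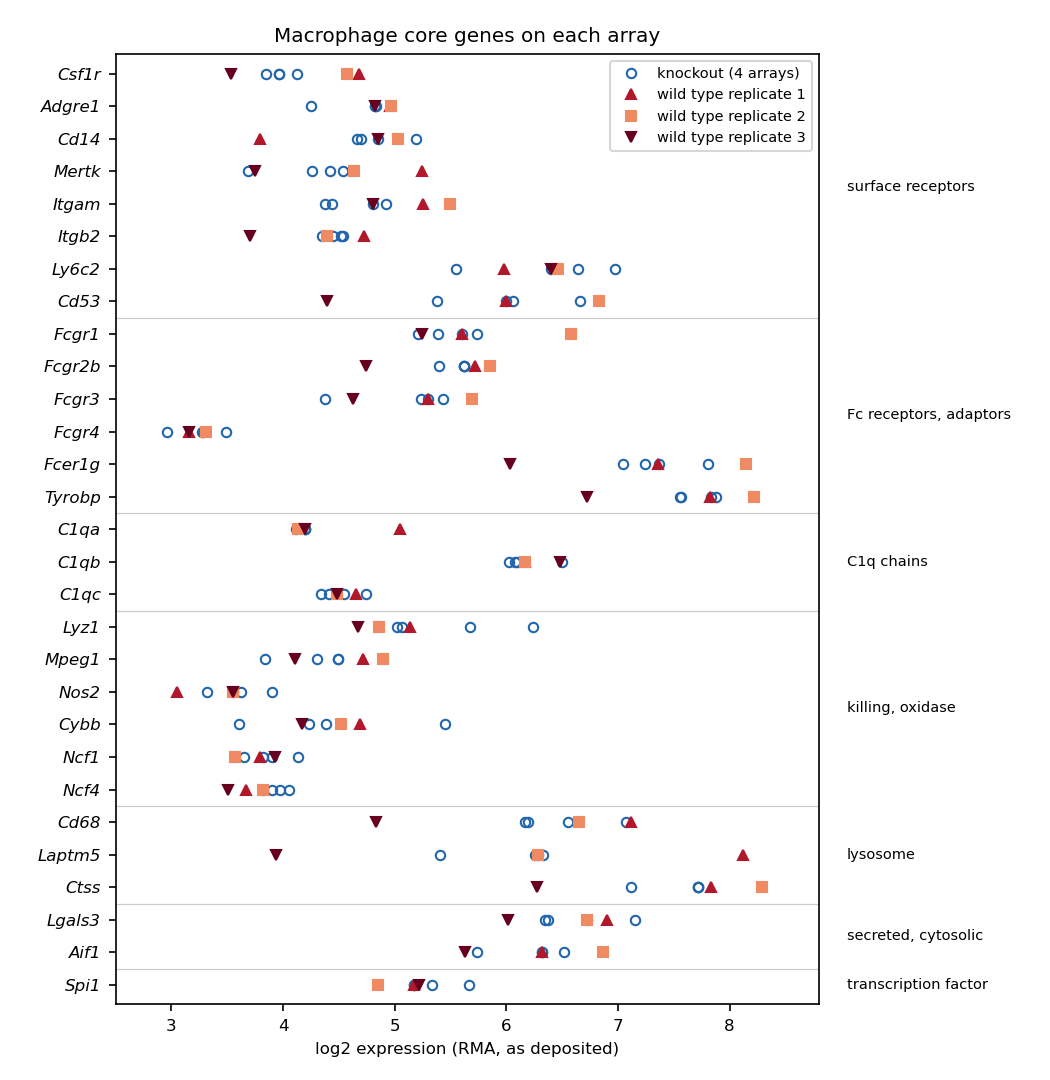
Log2 expression (x axis) of the 29 macrophage core genes (y axis, ordered by role) on each array: open circles are the 4 knockout arrays, and the triangle, square and inverted triangle are wild type replicates 1, 2 and 3. Wild type replicate 3 was the lowest array in 13 genes and wild type replicate 2 the highest in 11, and no gene separates the genotypes.

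Among the surface receptors, 4 of 8 were higher in knockout and 4 lower, with a median difference of -0.06. Itgam encodes the alpha chain of the integrin CD11b/CD18, a complement receptor for phagocytosis. It was at 4.37, 4.80, 4.44 and 4.92 on knockout replicates 1 to 4 and at 5.25, 5.50 and 4.80 on wild type replicates 1 to 3. Wild type replicates 1 and 2 were above every knockout array, while wild type replicate 3 lay among the knockout arrays. Knockout minus wild type came to -0.55 with an SE of 0.22 (95% confidence interval from -1.07 to -0.02; limma adjusted p = 0.9995), a level 0.683 times that of wild type. It ran from -0.74 to -0.39 as single arrays were left out, and the unadjusted p was under 0.05 in 2 of these 7 runs. Itgb2, which encodes the beta chain of the same integrin, differed by 0.19 (SE 0.24), and its knockout arrays spanned 4.35 to 4.53 within a wild type range of 3.70 to 4.73.

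Csf1r, the receptor for colony-stimulating factor 1 on which macrophage survival depends, was at 3.96, 3.85, 4.12 and 3.97 in knockout and at 4.68, 4.57 and 3.53 in wild type. Its wild type values fell on either side of all 4 knockout values, and the difference was -0.29 (SE 0.28). Without wild type replicate 3 the difference was -0.65 (limma adjusted p = 0.363), and it ran from -0.65 to -0.08 as single arrays were left out. Mertk, a receptor tyrosine kinase for the uptake of dying cells, spanned 3.69 to 4.54 in knockout and 3.75 to 5.25 in wild type, with a difference of -0.32 (SE 0.37). Adgre1, which encodes the F4/80 antigen, differed by -0.23 (SE 0.18), and knockout replicate 1, at 4.25, was apart from the other 6 arrays at 4.82 to 4.97.

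The remaining surface genes were higher in knockout by less than their standard errors. Cd14, a co-receptor for bacterial lipopolysaccharide, differed by 0.29 (SE 0.31), with a low value of 3.80 on wild type replicate 1 and 4.66 to 5.19 elsewhere. Cd53, a leukocyte tetraspanin, differed by 0.28 (SE 0.57), its wild type arrays lying at 5.99, 6.83 and 4.39. Ly6c2, a marker of inflammatory monocytes, was more variable in knockout, 5.55 to 6.97, than in wild type, 5.98 to 6.46, and differed by 0.11 (SE 0.34). Ly6c2 has a close paralog, Ly6c1, so its signal may be shared.

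Fc receptors bind the constant part of antibodies, and the adaptor chains Fcer1g and Tyrobp carry the activating motifs that signal for them and for related receptors. Of the 6 genes, 4 were higher in knockout and 2 lower, with a median difference of 0.08. Fcgr1, the high-affinity IgG receptor, was at 5.39, 5.60, 5.21 and 5.74 in knockout and at 5.60, 6.58 and 5.25 in wild type. Only wild type replicate 2 stood clear of the knockout arrays, and the difference was -0.33 (SE 0.32). Fcer1g was at 7.05, 7.36, 7.24 and 7.81 in knockout and at 7.36, 8.15 and 6.03 in wild type. Tyrobp was at 7.55, 7.84, 7.56 and 7.87 in knockout and at 7.82, 8.22 and 6.72 in wild type. In both adaptors wild type replicate 2 was the highest of the 7 arrays, wild type replicate 3 the lowest, and the knockout arrays lay between them. Their differences were 0.19 (SE 0.47) and 0.12 (SE 0.34), and without wild type replicate 3 they were -0.39 and -0.32. As other single arrays were left out, they reached 0.67 for Fcer1g and 0.44 for Tyrobp.

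Fcgr2b, the inhibitory IgG receptor, and Fcgr3, an activating one, followed the same order on the wild type arrays, with the highest value on replicate 2 (5.86 and 5.69) and the lowest wild type value on replicate 3 (4.74 and 4.63). They differed by 0.13 (SE 0.27) and -0.12 (SE 0.34). Fcgr4, the activating receptor related to human CD16, was dim, at 2.96 to 3.49 over the 7 arrays, and differed by 0.04 (SE 0.16). The Fc receptor genes are related in sequence, and how far their probe sets share signal was not tested.

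The C1q chains form the recognition unit of the classical complement pathway and are made in large part by macrophages. None of the 3 passed the test in limma, their differences were below 0 as deposited but 0.021 for C1qc after quantile normalization, and the genotypes overlapped in each. C1qa was at 4.19, 4.19, 4.12 and 4.19 in knockout and at 5.05, 4.14 and 4.19 in wild type, so that the difference of -0.29 (SE 0.23) rests on wild type replicate 1, and without that array it was 0.009. C1qb spanned 6.02 to 6.50 in knockout and 6.17 to 6.48 in wild type, and C1qc 4.34 to 4.74 and 4.49 to 4.65. Their differences were -0.10 (SE 0.17) and -0.03 (SE 0.15). The C1q chains did not have the low value on wild type replicate 3 that the adaptor and lysosomal genes had. Their mean deviation there was 0.04, against -0.65 for the Fc receptor and adaptor genes and -1.65 for the lysosomal genes. Some other members, among them Cd14, Ly6c2, Adgre1 and Nos2, were also above their own means on that array.

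Genes for killing and oxidant production had 4 of 6 members higher in knockout, with a median of 0.16. Lyz1 encodes lysozyme, which cleaves bacterial cell walls, and had the largest positive difference of the 29 genes. It was at 5.02, 5.07, 6.24 and 5.68 in knockout and at 5.13, 4.86 and 4.67 in wild type. Knockout replicates 3 and 4 were above all wild type arrays, and replicates 1 and 2 lay within the wild type range. Knockout exceeded wild type by 0.61 with an SE of 0.32 (95% confidence interval from -0.13 to 1.36; limma adjusted p = 0.9995), or 1.53-fold. Lyz1 and its neighbour Lyz2 are close paralogs, so the signal may come from either gene. Mpeg1, the pore-forming perforin-2 of phagocytes, differed by -0.29 (SE 0.25), and Nos2, the inducible nitric oxide synthase, which was dim, by 0.21 (SE 0.20).

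The oxidase subunits had small differences. Cybb, the membrane-bound catalytic subunit of the phagocyte NADPH oxidase, was at 3.60, 4.38, 4.24 and 5.45 in knockout and at 4.69, 4.52 and 4.17 in wild type. Its knockout arrays spanned 3.61-fold, the widest knockout range of the 29 genes, and enclosed the wild type values. The difference was -0.04 (SE 0.41), and 0.025 after quantile normalization. The cytosolic subunits Ncf1 and Ncf4 differed by 0.11 (SE 0.17) and 0.27 (SE 0.14). For Ncf4, knockout spanned 3.82 to 4.06 and wild type 3.51 to 3.82, with overlap only between knockout replicate 3 and wild type replicate 2, both at 3.82. Cyba, the partner of Cybb in the membrane, differed by -0.09 (SE 0.13).

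Lysosomal genes had the widest spread between wild type arrays. Laptm5, a lysosomal membrane protein of leukocytes, was at 8.12, 6.29 and 3.94 on wild type replicates 1 to 3, an 18.1-fold range. The knockout arrays lay between these extremes at 6.25, 6.33, 5.41 and 6.29, and the difference was -0.04 (SE 0.87), with a fold interval from 0.235 to 4.00. Cd68, a lysosomal glycoprotein widely used as a macrophage marker, was at 7.12, 6.65 and 4.83 in wild type and at 6.17, 6.55, 6.19 and 7.07 in knockout. Ctss, the cysteine protease cathepsin S that trims the invariant chain for antigen presentation, was at 7.83, 8.29 and 6.27 in wild type and at 7.71, 7.71, 7.12 and 7.71 in knockout. In all 3 genes wild type replicate 3 was lowest. Their differences without that array were -1.13, -0.39 and -0.50, against -0.04, 0.30 and 0.10 with it. The direction depended on which array was left out. Over all such runs the differences reached 0.96 for Laptm5, 0.75 for Cd68 and 0.51 for Ctss.

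Lgals3, the beta-galactoside-binding lectin galectin-3, which keratinocytes also make, differed by 0.10 (SE 0.29). Aif1, the actin-bundling protein Iba1, differed by -0.05 (SE 0.32). In both, wild type replicate 3 was the lowest of the 7 arrays, at 6.01 and 5.63. Spi1, the gene of PU.1, was at 5.17, 5.66, 5.17 and 5.34 in knockout and at 5.17, 4.85 and 5.22 in wild type. Its order was unlike that of most members, with the lowest value on wild type replicate 2, and it differed by 0.26 (SE 0.18).

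**Figure D2:**
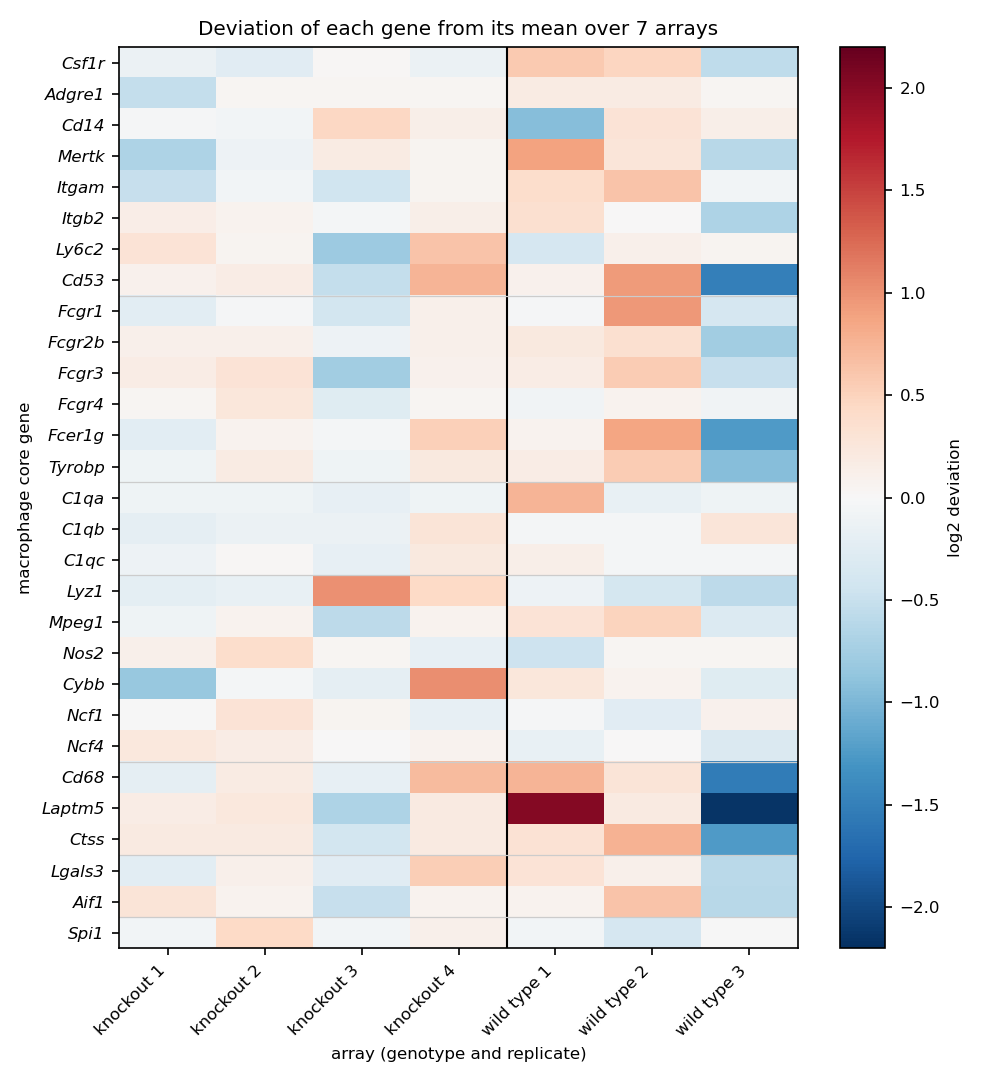
Deviation of each macrophage core gene (y axis) on each array (x axis) from its own mean over the 7 arrays, in log2 units from blue (below) to red (above). The wild type replicate 3 column is mostly blue, with Laptm5, Cd68 and Cd53 darkest. Members near or above 0 there include the C1q chains, Spi1, Ncf1, Cd14, Ly6c2, Adgre1 and Nos2.

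Many members shared their highest and lowest arrays. Averaged over the members, the deviation from each gene's own 7-array mean was lowest on wild type replicate 3, at -0.50, and came to 0.20 and 0.26 for wild type replicates 1 and 2, while the knockout arrays lay at -0.09, 0.09, -0.17 and 0.22. Wild type replicate 3 was the lowest array in 13 of 29 members, 44.8%, against 19.2% of all genes and 32.9% of the brighter 50% of genes. It was the highest array in 0 members, against 30.1% of all genes and 20.3% of the brighter 50%. Wild type replicate 1 was highest in 6 members, 20.7%, against 25.3% of all genes and 41.0% of the brighter 50%. Members varied more among wild type than among knockout arrays in 20 of 29, 69.0%, against 76.9% of all genes and 81.5% of the brighter 50%. The median SD of the members was 0.51 in wild type and 0.27 in knockout, against 0.39 and 0.19 over all genes. Over the brighter 50% of genes it was 0.51 in wild type and 0.21 in knockout. In 5 members, Cd53, Fcer1g, Cd68, Laptm5 and Ctss, the wild type arrays spanned over 4-fold.

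Wild type replicate 2 was the wild type array most like the knockout arrays over all probe sets, and many macrophage genes were at their highest there. It was the highest array in 11 of 29 members, against 7.04% of all genes. It was above every knockout array in 13 members, where 17.1% of all genes were, and below every knockout array in 3 (Lyz1, Ncf1 and Spi1), where 20.3% of all genes were. Against that array alone, with its spread assumed to be that of the knockout arrays, 4 members had an unadjusted p under 0.05, where 8.73% of all genes did: Fcgr1 at -1.10, Itgam at -0.86, Csf1r at -0.59 and Tyrobp at -0.52. The smallest adjusted p of these was 0.397. This comparison rests on 1 wild type array, chosen with the arrays' values known.

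**Figure D3:**
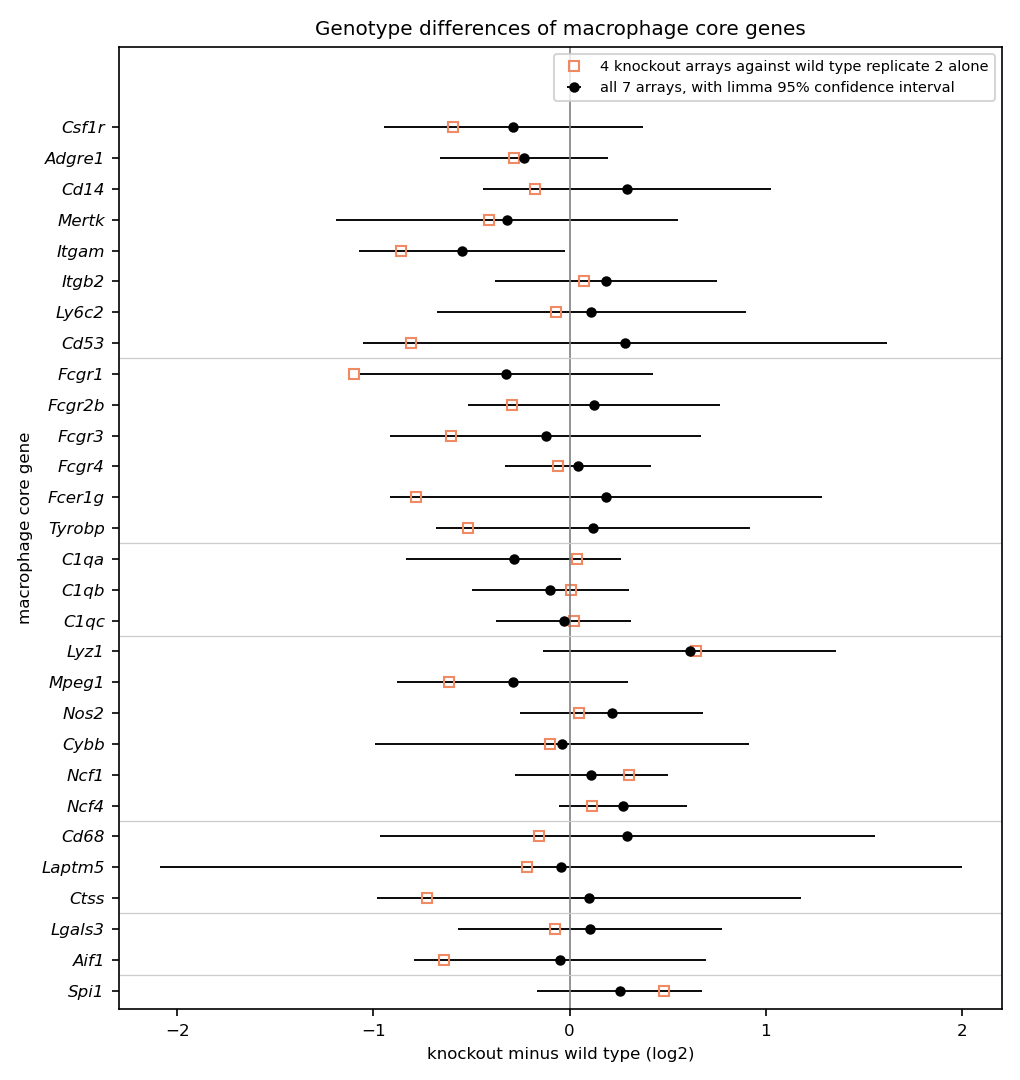
Knockout minus wild type (x axis, log2) for each macrophage core gene (y axis): black points with limma 95% confidence intervals use all 7 arrays, and open squares compare the 4 knockout arrays with wild type replicate 2 alone. Only the interval of Itgam excludes 0, and the squares of 20 genes lie below 0, against 13 of the black points.

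The wider set of monocyte and macrophage genes was described by the same counts. Of its 56 measured genes, 22 were higher in knockout and 34 lower, with a median difference of -0.09. None passed at an adjusted p under 0.05. An unadjusted p under 0.05 in limma was found for 2, where 1.88% of all genes passed: Plek at -0.56 (SE 0.22) and Il18 at 0.80 (SE 0.33). Plek, the protein kinase C substrate pleckstrin, was at 3.73 to 4.21 in knockout and 4.25 to 4.98 in wild type. It was the 1 gene of the 56 without overlap, and 1.91% of all genes had none. Il18, a cytokine of the interleukin-1 family that keratinocytes also make, was at 6.61 to 7.51 in knockout and 5.54 to 6.70 in wild type. Csf1 and Il34, the ligands of Csf1r, differed by 0.10 (SE 0.12) and -0.23 (SE 0.27). Ccr2, the receptor that draws monocytes out of blood, was at 7.65, 8.22 and 5.82 on wild type replicates 1 to 3 and at 7.10 to 7.73 in knockout, the same order over the wild type arrays as Fcer1g, Tyrobp and Ctss, and differed by 0.09 (SE 0.53). Gpnmb, a glycoprotein of macrophages and melanocytes, was at 8.19 on wild type replicate 1 and at 4.13 to 5.14 on the other 6 arrays.

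Lists for other cell types were set beside the macrophage genes because whole skin holds all of them. Pan-leukocyte genes had their lowest mean on wild type replicate 3 (-0.59), as the macrophage genes did, and their highest on wild type replicate 1 (0.39), followed by knockout replicate 4 (0.25) and wild type replicate 2 (0.24). Fibroblast, keratinocyte, skeletal muscle and adipocyte genes were also lowest on wild type replicate 3, at -0.88, -0.91, -1.19 and -0.92. The widest movement was on wild type replicate 1. There the hair follicle list averaged 3.32 above its 7-array means and was highest in 12 of 12 genes. The knockout mean of these genes was below the wild type mean in 12 of 12. Wild type replicate 2 was above every knockout array in 6 of them, against 17.1% of all genes, and below every knockout array in 0. Keratinocyte and fibroblast genes were also highest on wild type replicate 1, at 1.05 and 0.64. The members Csf1r, Mertk, Itgb2, C1qa, Cd68 and Laptm5, and Gpnmb of the wider set, were highest on the same array. B cell and eosinophil genes, which were dim, were highest on wild type replicate 3, at 0.46 and 0.33. The neutrophil list of 16 genes had mean levels of 3.53 to 4.01 in knockout and 3.69 to 3.76 in wild type, with 8 genes higher and 8 lower. Within the list, Ly6g was dim, at 1.83 to 3.54 over all arrays. S100a8 and S100a9 were brighter and more variable, at 5.78 to 9.28 and 6.11 to 8.83 in knockout and at 6.24 to 9.61 and 6.46 to 9.48 in wild type. The dendritic and Langerhans list of 16 genes had mean levels of 4.64 to 4.74 in knockout and 4.63 to 4.83 in wild type. The part of these other cells in the macrophage values was not tested.

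**Figure D4:**
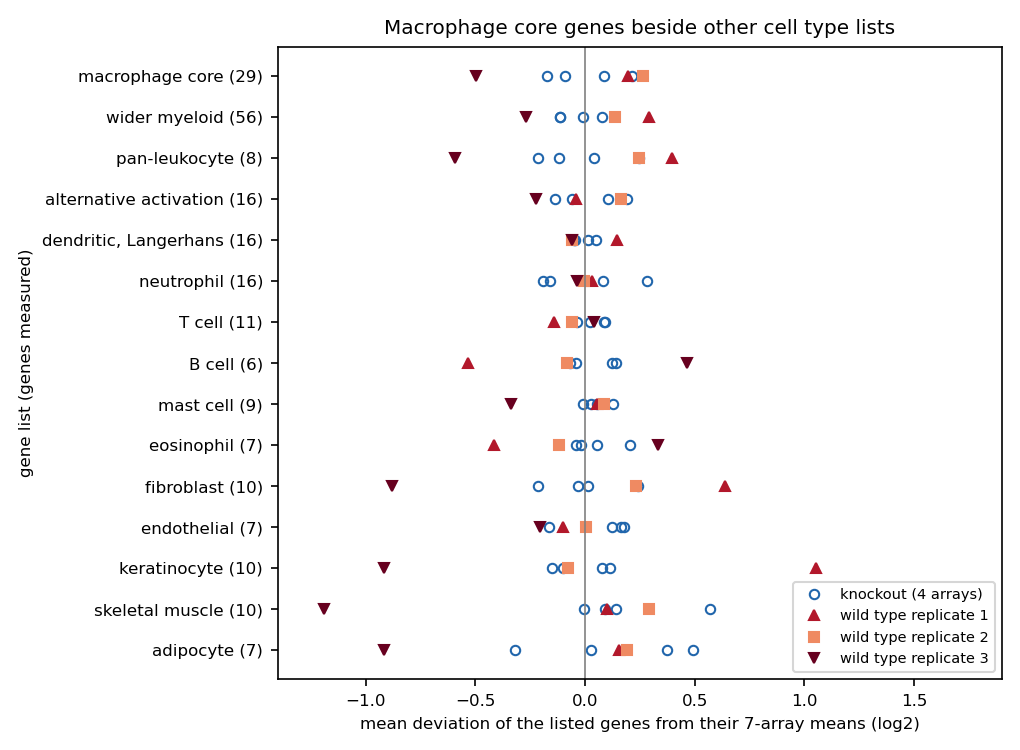
Mean deviation of each gene list (y axis, number of genes measured in brackets) from the genes' own 7-array means (x axis, log2), for the 4 knockout arrays (open circles) and wild type replicates 1, 2 and 3 (triangle, square, inverted triangle). The macrophage core list has wild type replicate 3 at -0.50 and the other 6 arrays between -0.17 and 0.26, as the pan-leukocyte list has it at -0.59, while the B cell and eosinophil lists are highest there.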

How the data were processed

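The deposited values are log2 expression made by the authors with RMA (robust multi-array average), a method that the submitters' processing notes name; its version, how probe sets were defined and the genome build are not given in the sources used here. They were tested as deposited. Of 25206 probe sets, 23185 had 1 gene symbol in the platform annotation, none had several and 2021 were unnamed here. No gene had over 1 probe set. Exactly the same value on some arrays, which the median polish of RMA can return, was found in 19 of the 29 macrophage genes. It was found in 54.3% of all genes.

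Genotypes, taken from the sample titles, were tested in limma 3.58.1, run in R 4.3.3 (lmFit and eBayes, 2-sided, all 7 arrays, Benjamini-Hochberg over 23185 genes, threshold 0.05). The procedure was tested on simulated data. The number of arrays limits the precision, and the p-values measure the spread between samples, which may be partly technical. Alternatives were other moderation, filters, normalizations, array weights, covariates, blocks and left-out arrays.

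Members and lists were chosen with earlier results of these data known. All members were named. From the wider list the 10 genes with the smallest p and Csf1, Il34, Ccr2 and Cyba could be named, and 2 from each other list. Ly6g, S100a8 and S100a9 were chosen after their values were seen. Samples of the same replicate number had correlations of deviations of -0.09, -0.14 and 0.03, against -0.36 to 0.27 for other pairs. These show no pairing but cannot exclude one, because wild type replicates 1 and 3 stood apart. Promoters came from RefSeq (GRCm38.p6), and figures were drawn with matplotlib 3.10.9.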

Additional observations from a re-analysis of the deposited data

Results flagged for a closer look

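Among the 4 knockout arrays, 1 array lay far from the other 3 in 6 of the 29 macrophage genes, by the ratio of its gap to the whole range. Chance gives this in about 1 gene in 20, but over all genes of these arrays it occurred in 20.3%. Knockout replicate 3 was the low array in Fcgr2b (ratio 1.0), C1qa (1.0), Ctss (1.0) and Laptm5 (0.920), at 5.40, 4.12, 7.12 and 5.41. In the first 3 of these genes the other 3 knockout arrays held 1 identical value, so the ratio is at its maximum whatever the size of the gap, which was 0.08 in C1qa. Knockout replicate 1 was low in Adgre1 (0.980), at 4.25, and knockout replicate 4 was high in C1qb (0.849), at 6.50.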

How the results depend on the processing

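No alternative other than array weights called any member at an adjusted p under 0.05, and array weights called 11. The median difference over members was -0.24 within arrays with the code suffix, of which 1 is wild type, and ran from -0.28 to 0.17 when 1 array was left out. Members with an unadjusted p under 0.05, 1 in the fit reported first, numbered 16 with array weights (31.8% of all genes), 4 with wild type replicate 2 as the only wild type array (8.73%), 2 with the array SD as a covariate (7.61%) and 0 with trend and robust moderation, median centring, the code suffix or number as a block, within arrays without the suffix and without the dimmest 50% of genes (1.2% to 1.89%), and ran from 0 to 3 when 1 array was left out (1.07% to 12.0%). With the replicate block 1 member had an unadjusted p under 0.05 and the median difference was -0.064. Members whose genotypes did not overlap, 0 in the values as deposited, numbered 2 after scaling to a common SD (4.49% of all genes), 1 after quantile normalization (5.03%), 20 within the 3 arrays with the suffix (60.5%), 4 within the 4 without it (16.2%) and 16 against wild type replicate 2 (37.5%). They ran from 0 to 7 when 1 array was left out (3.09% to 21.4%), and the 7 were without wild type replicate 3. Of the 29 members, 8 kept their direction in all of the up to 22 alternatives run for each (Adgre1, Csf1r, Itgam and Mpeg1 lower; Lyz1, Ncf4, Nos2 and Spi1 higher), against 28.9% of all genes. The sign turned in the following, the cause of which was not tested. With array weights the differences were C1qa 0.034, C1qc 0.015, Cd14 -0.17, Cd53 -0.84, Cd68 -0.18, Ctss -0.73, Fcer1g -0.79, Fcgr2b -0.29, Fcgr4 -0.055, Lgals3 -0.091, Ly6c2 -0.11, Tyrobp -0.52. With the array SD as a covariate the differences were Aif1 0.020, Cybb 0.053, Laptm5 0.38. With a common SD the differences were Aif1 0.046, Laptm5 0.24. After quantile normalization the differences were Aif1 0.047, C1qc 0.021, Cybb 0.025, Fcgr3 0.029, Laptm5 0.29. With the code number as a random block the differences were Cybb 0.013, Laptm5 0.13. With the replicate block the differences were Lgals3 -0.064, Ly6c2 -0.081. Within arrays with the suffix the differences were C1qa 0.018, Cd14 -0.10, Cd53 -1.11, Cd68 -0.28, Ctss -0.87, Fcer1g -0.84, Fcgr2b -0.35, Fcgr4 -0.085, Lgals3 -0.19, Ly6c2 -0.49, Tyrobp -0.52. Within arrays without the suffix the differences were Aif1 0.44, C1qc 0.0085, Cybb 0.10, Fcgr1 0.14, Fcgr3 0.30, Laptm5 0.24, Ncf1 -0.12. Against wild type replicate 2 alone the differences were C1qa 0.037, C1qb 0.0055, C1qc 0.025, Cd14 -0.18, Cd53 -0.81, Cd68 -0.16, Ctss -0.72, Fcer1g -0.78, Fcgr2b -0.29, Fcgr4 -0.057, Lgals3 -0.073, Ly6c2 -0.070, Tyrobp -0.52. When 1 array was left out, the differences ran from -0.37 to 0.25 for Aif1, from -0.45 to 0.0087 for C1qa, from -0.21 to 0.0055 for C1qb, from -0.11 to 0.027 for C1qc, from -0.089 to 0.53 for Cd14, from -0.39 to 0.83 for Cd53, from -0.39 to 0.75 for Cd68, from -0.50 to 0.51 for Ctss, from -0.38 to 0.23 for Cybb, from -0.39 to 0.67 for Fcer1g, from -0.61 to 0.060 for Fcgr1, from -0.22 to 0.33 for Fcgr2b, from -0.41 to 0.12 for Fcgr3, from -0.035 to 0.14 for Fcgr4, from -0.10 to 0.41 for Itgb2, from -1.13 to 0.96 for Laptm5, from -0.16 to 0.28 for Lgals3, from -0.081 to 0.39 for Ly6c2, from -0.71 to 0.034 for Mertk, from -0.32 to 0.44 for Tyrobp. The fit with array weights stopped before it converged. Dim genes and the number of arrays limit what these values can show, and scaling moved the median of all genes by less than 0.1.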

Other observations

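Outside the macrophage core, a few genes of neighbouring lists separated the genotypes without passing an adjusted p under 0.05 (limma adjusted p = 0.9995 for each). Over all genes, 1.91% separated them. The lists held 2 of 16 such genes for alternative activation, 2 of 11 for T cells and 1 of 16 for neutrophils. The dendritic and Langerhans, B cell, mast cell, eosinophil and pan-leukocyte lists held 0. Retnla, a secreted product of alternatively activated macrophages and of adipose tissue, was at 9.72, 9.92, 11.79 and 10.42 in knockout and at 8.90, 9.47 and 8.93 in wild type. The difference was 1.36 (SE 0.49, higher in 4 of 4 knockout arrays). Of the 7 adipocyte genes, 6 were higher in knockout and 1 lower, with a median difference of 0.43. That list had its highest mean deviation on knockout replicate 3 (0.49), where Retnla was also highest. The part of adipose tissue in the Retnla values was not tested. Ccl17, a chemokine for T cells made by dendritic cells and macrophages, was at 3.10 to 3.48 in knockout and 3.48 to 3.80 in wild type. The difference was -0.33 (SE 0.16). Its highest knockout value, 3.4805, was barely under its lowest wild type value, 3.4823, and its mean lay below the median of all values. Over the 16 genes of the alternative activation list, 7 were higher and 9 lower, with a median of -0.04. Cd3d, a chain of the T cell receptor complex, was at 3.15 to 3.64 in knockout and 2.66 to 3.01 in wild type, a difference of 0.58 (SE 0.18), mostly below the median of all values, and 7 of the 11 T cell genes were higher and 4 lower.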
